A study of Danio rerio with 6 samples.

Results

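Long deletions are scars in which a single stretch of 25 bp or more was lost from GFP and nothing else changed. They were chosen by a rule on the deposited read counts, from libraries with at least 1000 reads. A scar was a member when it held exactly 1 deletion and no insertion, when the deleted bases overlapped positions 520 to 570 of the 720-bp GFP reference, and when at least 10 reads were counted in at least 1 library. This gave 117 different long deletions among 4273 scars of any kind that reached the same 10 reads. ScarTrace was applied to 6 adult zebrafish of about 1 year that carried a tandem array of H2A-GFP transgenes and had received a guide RNA against GFP as zygotes. Fish R1, R2 and R3 received Cas9 as RNA and fish P1, P2 and P3 received Cas9 as protein, and no uninjected fish was analysed here. Each of the 130 libraries was made from genomic DNA of a dissected piece of 1 fish and is known here by its barcode number only, so that no tissue is named and several libraries may come from the same piece.

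When Cas9 cuts DNA, the ends are rejoined by the cell, and bases are often lost or added at the junction. Most repair by end joining removes few bases, while longer losses arise when the ends are resected before they are joined, often at short repeats that lie on both sides of the break. A scar made in an embryonic cell is copied into all its descendants, so that a scar made often in independent cells says little about ancestry and a scar made rarely marks a clone. A deletion that removes a primer site cannot be amplified, which limits the longest losses that the assay can show.

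The tables give each scar as a string of matched (M) and deleted (D) lengths along the reference, and no bases. The string 524M25D171M stands for 524 matched bases, 25 deleted bases and 171 matched bases, and so for the loss of positions 525 to 549. This deletion was kept in all 6 fish. The others kept in all 6 fish were 531M26D163M (positions 532 to 557), 520M27D173M (positions 521 to 547) and 523M25D172M (positions 524 to 548). Among the first 3 long deletions by reads of a single fish were 539M30D151M (positions 540 to 569) in fish R2, 512M50D158M (positions 513 to 562) and 521M39D160M (positions 522 to 560) in fish P1, 524M33D163M (positions 525 to 557) in fish P3 and 523M28D169M (positions 524 to 551) in fish R3. The longest was 440M109D171M, which lacks positions 441 to 549. Where bases beside a deletion repeat, its position in such a string is one of several that are equally possible.

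Reads were counted from 4211588 in fish R3 to 23286860 in fish P1, and single libraries held between 2802 and 3198706. Fish R1 had 60 long deletions in 31 libraries, fish R2 had 16 in 13 and fish R3 had 27 in 14. In Cas9 protein fish there were 32 long deletions in 26 libraries of fish P1, 12 in 23 libraries of fish P2 and 31 in 23 libraries of fish P3. The number was 34.3 ± 22.9 in the Cas9 RNA group and 25 ± 11.3 in the Cas9 protein group (SD, n = 3 each), and the ranges overlapped. The rule uses reads, so depth can bear on these numbers as well as scarring, and the part of each was not tested. The numbers did not rank as the total reads of a fish did. Fish P1 had most reads and 32 long deletions, while fish R1 had 12012819 reads and 60. The rule acts on the reads within a library, not on this total, and fish R1 also had most libraries, 31. The order of total reads therefore does not show the part of depth. With every library drawn down to 2500 reads, fish R1 kept 9, fish R2 1 and fish R3 4, and fish P1 kept 5, fish P2 2 and fish P3 3. The read limit is a larger part of a library drawn down in this way. These numbers therefore do not show the part of depth either.

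Long deletions made up a small part of the scarred reads in every fish. Of all scarred reads of a fish, 1.05% in fish R1 (95% Wilson interval 1.04 to 1.06%), 2.09% in fish R2 (2.06 to 2.11%) and 0.989% in fish R3 (0.976 to 1.00%) carried one. After injection of Cas9 protein, 2.54% of fish P1 (2.53 to 2.55%), 0.506% of fish P2 (0.501 to 0.512%) and 1.37% of fish P3 (1.36 to 1.38%) did. These intervals treat each read as independent and leave out the spread between libraries. PCR copies of a molecule cannot be recognised in these counts, so the intervals can be too narrow even for counting error. Counted on all reads, unscarred GFP included, the percentages were 0.776, 0.291 and 0.548 in the Cas9 RNA group and 1.68, 0.371 and 0.935 in the Cas9 protein group, so that fish R2, the second highest on scarred reads, was lowest on all reads. The highest and the lowest value were both found among Cas9 protein fish, and the mean was 1.38% ± 0.617 in the Cas9 RNA group and 1.47% ± 1.02 in the Cas9 protein group (SD, n = 3 each). Single deletions of 13 to 24 bp under the same rule had a far larger share of scarred reads, with 9.81% in fish R2 as the lowest and 38.5% in fish P3 as the highest value, more than long deletions in 6 of 6 fish.

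The deletion of positions 525 to 549 was the most widespread long deletion. Its share of scarred reads was 0.156% in fish R1, 0.188% in fish R2 and 0.171% in fish R3, against 0.618% for P1, 0.345% for P2 and 0.617% for P3. In these shares of the pooled reads of a fish the groups did not overlap, with 0.171% ± 0.0162 in the Cas9 RNA group and 0.526% ± 0.157 in the Cas9 protein group (SD, n = 3 each). The difference was -0.355 percentage points (exact permutation test, two-sided, p = 0.10, adjusted p = 0.40, 4 deletions tested). A p of 0.10 is the smallest that 3 fish against 3 can give, so this difference cannot pass 0.05 in this design. Among all scars of any kind kept in all 6 fish, 121 in number, 3 (2.48%) were likewise lower in every Cas9 RNA fish than in any Cas9 protein fish, and 21 (17.4%) were higher in every Cas9 RNA fish. Of the 4 long deletions in this set, 1 belonged to the first kind and none to the second. The 525 to 549 deletion was kept in all 31, 26 and 23 libraries of fish R1, P1 and P3, in 21 of 23 of fish P2, in 12 of 14 of fish R3 and in 5 of 13 of fish R2. Within a fish its level was very uneven. In fish P1 it made up between 0.0326% and 5.30% of the scarred reads of a library, with a median of 0.669%. In fish P2 the median library had 0.0217% and barcode 1 alone had 3.46%, with 77% of all reads of the deletion in that fish. In fish P3 the median was 0.0429% and the highest 3.51%, in barcode 23. Cas9 RNA fish had highest values of 1.14% (fish R1), 1.03% (fish R2) and 0.559% (fish R3). Their median libraries had 0.112%, 0.00897% and 0.125%, so that fish P2 and P3 lay below fish R1 and R3. By median library the groups therefore overlapped, while by the mean of the libraries they did not.

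The other deletions kept in all 6 fish showed no separation of the injection groups. Shares are those of the exact scar, and leave out longer deletions over the same positions and scars of several events. The loss of exactly positions 532 to 557 made up 0.157%, 0.00385% and 0.0765% of scarred reads in R1, R2 and R3. In P1, P2 and P3 it made up 0.000136%, 0.10% and 0.302% (exact permutation test, two-sided, p = 0.70). It had 21 reads in all of fish P1 and 15738 in fish P3. Most of its reads came from a single library in each fish, namely 81.2% from barcode 5 of fish R1, 93.6% from barcode 14 of fish R2, 78.5% from barcode 3 of fish R3, 90.5% from barcode 2 of fish P1, 97.1% from barcode 1 of fish P2 and 81.6% from barcode 22 of fish P3. The loss of exactly positions 521 to 547 made up 0.138%, 0.0200% and 0.0334% of scarred reads in R1, R2 and R3. In P1, P2 and P3 it made up 0.0225%, 0.00498% and 0.0560% (exact permutation test, two-sided, p = 0.60). This deletion was kept in 27 of 31 libraries of fish R1 and in 20 of 23 of fish P3, but in 3 of 13 of fish R2 and 4 of 23 of fish P2. The loss of exactly positions 524 to 548 is shifted by 1 base from the most widespread deletion. It made up 0.151% of scarred reads in fish R3 and at most 0.00567% in any other fish (exact permutation test, two-sided, p = 0.40). These p-values are not adjusted, and the adjusted p was 0.70 for each of these deletions (exact permutation test, Benjamini-Hochberg).

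The deletions kept in 5 fish were those of positions 524 to 551, 530 to 554 and 512 to 562, the last of which was chosen after its values were seen. The loss of exactly positions 524 to 551 made up 0.125%, 0.0104% and 0.253% of scarred reads in R1, R2 and R3. In fish P2 and P3 it made up 0.0432% and 0.0131%. In fish R3, where it was the first long deletion by reads, 9 of 14 libraries kept it and barcode 13 gave 63.7% of its reads. Fish P1 had 0 reads of it, although it was the fish with most scarred reads, and 3 reads would there amount to 1.95e-05%. The deletion of positions 512 to 562 was read in all 6 fish, but its highest level was 0.0202%, in fish R1. It differs by 1 base at its start from the 513 to 562 deletion that led in fish P1. The loss of exactly positions 530 to 554 made up 0.130% of scarred reads in fish R2, where 12 of 13 libraries kept it, and at most 0.0640% elsewhere. Deletions kept in 4 fish were those of positions 540 to 569 and 536 to 565, the second chosen after its values were seen. The second was led by fish P1, with 0.0624% of scarred reads and 23 libraries, while R1, R2 and R3 kept it in 1 library each.

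Some fish had a leading long deletion that was rare or absent elsewhere. The loss of positions 540 to 569 made up 1.56% of scarred reads in fish R2 and 74.9% of its long-deletion reads. It was kept in all 13 libraries of fish R2, between 0.214% and 4.36% of the scarred reads, with a median of 0.605%. In the other fish in which it was kept it made up 0.00143% (fish R1), 0.0132% (fish P1) and 0.000422% (fish P3), and fish R3 and P2 had 0 reads. In fish P1 the loss of positions 513 to 562 made up 1.30% of the scarred reads and was kept in all 26 libraries, with a median of 1.05% and a highest value of 3.83%. Fish P2 had 90 reads of it and fish P3 had 1. The loss of positions 522 to 560 made up 0.388% in fish P1, and was kept in no other fish. Its lowest library had 0.0177% and its median library 0.0275%, while barcodes 6 and 7 had 2.56% and 2.61%. Its reads were thus spread over the libraries at a low level and high in few. The counts were not filtered for noise, and whether such low-level reads came from the pieces of these libraries was not tested. In fish P3 the loss of positions 525 to 557 made up 0.239%, with 91.4% of its reads in barcode 22. The same library also held 81.6% of the reads of the 532 to 557 deletion of fish P3, and long deletions made up 7.63% of its scarred reads, the highest value of the 130 libraries. Both deletions end at position 557.

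The 3 most abundant long deletions held 44.2%, 90.1% and 58.1% of the long-deletion reads in R1, R2 and R3, against 90.6%, 96.5% and 84.6% in P1, P2 and P3. To reach 90% of these reads took 12 long deletions in fish R1, 8 in fish R3, 5 in fish P3 and 3 in each of the other fish. Fish R1 was thus the fish with most long deletions and the most even one. Its first 3 were the losses of positions 532 to 557, 525 to 549 and 531 to 556, at 0.157%, 0.156% and 0.151% of the scarred reads. The third of these was kept in fish P2 and P3 as well, where it made up 0.000326% and 0.0733%.

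Deletions were placed relative to position 542, the base deleted in most scarred reads among single deletions shorter than 25 bp (mean of 53.9% over the 6 fish). Taken fish by fish, this base was position 542 in R1, R3 and P1, position 544 in R2 and P2 and position 545 in P3. Of the 117 long deletions, 111 removed position 542, 4 lay entirely to its left and 2 entirely to its right. The window of the rule required overlap with positions 520 to 570, so long deletions further away had no chance to appear. Of the 117, 81 extended further to the left, 35 further to the right and 1 equally. The median reach was 22 bp to the left and 11 bp to the right. The longest reach was 101 bp to the left and 35 bp to the right. The left reach minus the right reach of a long deletion had a positive median in each fish, at 13, 4.50 and 12 bp in R1, R2 and R3, against 10.5, 9.50 and 5 bp in P1, P2 and P3. This value depends on where position 542 lies, because a deletion that lies wholly to its left also has a positive value. A positive value was not particular to long deletions. Single deletions of 1 to 2 bp had medians of 9, 0 and 7 bp in R1, R2 and R3, against 7, 4 and 11 bp in P1, P2 and P3. In fish R1 their median left reach was 5 bp and their median right reach -4 bp, which is a position left of 542 and not a long extension. Those of 3 to 6 bp had 10, 5 and 7 bp, against 10, 5 and 5 bp. Those of 7 to 12 bp had 7, 1 and 3 bp, against 4, 3.5 and 1 bp. The part of the anchor in the leftward excess of long deletions was not tested. Counted by reads, the side of long deletions was not the same in every fish. Long deletions that reached further left held 65.2%, 15.2% and 79.2% of the long-deletion reads in R1, R2 and R3, against 94.6%, 78.8% and 70.4% in P1, P2 and P3. In fish R2 the loss of positions 540 to 569, which reaches 2 bp to the left and 27 bp to the right, set this value.

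The left and right reach differed between lengths. Long deletions of 25 to 29 bp had a median reach of 17 bp to the left and 8.5 bp to the right, those of 30 to 39 bp of 20 and 14.5 bp, and those of 40 to 59 bp of 33.5 and 10 bp. The 9 long deletions of 60 bp or more reached 67 bp to the left and 7 bp to the right in the median, and none reached more than 13 bp to the right. All 9 extended further to the left. The 3 longest were the losses of positions 441 to 549 in fish R2 (109 bp, 181 reads), 457 to 544 in fish P1 (88 bp, 27 reads) and 468 to 552 in fish P1 (85 bp, 804 reads).

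Last deleted bases were more concentrated than first ones. First deleted bases lay between positions 441 and 545 and used 52 different positions, with quartiles at 509 and 529. Last deleted bases lay between positions 538 and 577 and used 33 positions, with quartiles at 547 and 560. The first bases used by most long deletions were positions 521 and 524, with 6 each, followed by positions 504, 522, 532 and 535, with 5 each. The last bases used by most were positions 544 (11 long deletions), 547 (8) and 549 (7). The 11 that ended at position 544 were between 25 and 88 bp long, so that a common end was joined to many starts. They held on average 1.36% of the long-deletion reads of a fish, while the 7 that ended at position 549 held 33.4%. Most of the latter reads belonged to the 525 to 549 deletion alone. It had 13812 of 21657, 2295 of 2515 and 3981 of 6882 such reads in R1, R2 and R3. In P1, P2 and P3 it had 95134 of 95144, 22259 of 22279 and 32174 of 32174. Position 549 ended both the most widespread long deletion and the longest one. It also ended the 513 to 549 deletion of fish R1, named after its values were seen. That scar was kept in no other fish, and it made up 2.34% of the scarred reads of barcode 12, where long deletions reached 2.89%, the highest value of fish R1.

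The median long deletion was 34 bp long, with quartiles of 28 and 44 bp. By length, 38 were of 25 to 29 bp, 42 of 30 to 39 bp, 28 of 40 to 59 bp and 9 longer. Reads were distributed differently among these lengths in each fish. Long deletions of 25 to 29 bp held 80.9%, 20.04% and 88.6% of the long-deletion reads of R1, R2 and R3, against 27.7%, 99.5% and 79.6% of those of P1, P2 and P3. In fish R2, 77.3% lay at 30 to 39 bp, and in fish P1, 52.8% lay at 40 to 59 bp, mostly the 30-bp and the 50-bp deletion described above. The length was a multiple of 3, which leaves the reading frame of a coding sequence in register, in 40 of 117 long deletions (34.2%).

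Most long deletions were kept in a single fish. This held for 92 of the 117 (78.6%), while 9 were kept in 2 fish, 7 in 3, 2 in 4, 3 in 5 and 4 in all 6. Of the 92, 55 had no read in the libraries of any other fish and 37 had some, with at most 33 reads. The limit of 10 reads therefore decided the fish count of part of them. Deletions kept in 2 or more fish were shorter, with a median of 27 bp against 37 bp for those kept in 1 fish. They also had more reads, with a median of 2390 in their best fish against 70.5, so that sharing cannot be told apart from read number. Among long deletions of 25 to 29 bp, 15 of 38 were kept in 2 or more fish (39.5%), and among those of 30 bp or more 10 of 79 (12.7%). No deletion of 60 bp or more was kept in a second fish. Within a fish, those kept in no other fish numbered 41 of 60, 6 of 16 and 13 of 27 in R1, R2 and R3, against 17 of 32, 1 of 12 and 14 of 31 in P1, P2 and P3. They held 21.1%, 4.91% and 8.48% of the long-deletion reads of R1, R2 and R3, against 19%, 1.36% and 20.1% of those of P1, P2 and P3.

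Each long deletion in each fish in which it was kept gave 178 cases. In 81 of these it was kept in a single library, and in 59 more than 90% of its reads came from 1 library. At the other end, 5 cases were kept in every library of their fish, namely the loss of positions 525 to 549 in fish R1, P1 and P3, that of positions 540 to 569 in fish R2 and that of positions 513 to 562 in fish P1. Kept in a single library were 46.7%, 68.8% and 51.9% of the long deletions of R1, R2 and R3, against 31.3%, 41.7% and 41.9% of those of P1, P2 and P3. The groups did not overlap in this measure, with 55.8% ± 11.5 in the Cas9 RNA group and 38.3% ± 6.09 in the Cas9 protein group (SD, n = 3 each). The measure rests on the limit of 10 reads that also chose the scars, so the separation supports no conclusion on the injection. The number of libraries differed beside it, with 31, 13 and 14 in the Cas9 RNA group and 26, 23 and 23 in the Cas9 protein group. Scarred reads numbered 8876393, 1221515 and 2334190 in R1, R2 and R3, against 15405490, 6444785 and 5218309 in P1, P2 and P3. The part of either in the difference was not tested. The groups overlapped in the number of long deletions, their share of reads, the share kept in no other fish, multiples of 3 and median reach. For deletions of 13 to 24 bp, kept in a single library were 22.2%, 33.3% and 22.6% in R1, R2 and R3. In P1, P2 and P3 these were 22.2%, 35.8% and 26.9%, so that the groups overlapped.

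No library was without long-deletion reads, but their share varied widely. In fish R1 they made up between 0.0761% and 2.89% of the scarred reads of a library, with a median of 1.06%. Fish R2 had 0.615% to 4.51% (median 1.38%) and fish R3 0.0401% to 2.59% (median 0.851%). In fish P1 the range was 0.129% to 6.97% with a median of 2.83%, in fish P2 0.0116% to 4.76% with a median of 0.0842%, and in fish P3 0.0672% to 7.63% with a median of 0.214%. In fish P2 and P3 the pooled share was therefore set by few libraries, while in fish P1 it was high in most. The highest library of fish P1, barcode 3, had 5.30% of its scarred reads on the deletion of positions 525 to 549. The lowest, barcode 24, was the library of that fish with most reads, 2839277. The median library carried 8, 3 and 6.5 long deletions with at least 10 reads in R1, R2 and R3, against 9.5, 2 and 5 in P1, P2 and P3.

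Long deletions also occurred together with other events. Scars of several events that held a deletion of 25 bp or more in the same window made up 0.0395%, 0.0978% and 0.0178% of scarred reads in R1, R2 and R3, against 0.149% and 0.0169% of those of fish P1 and P2, less than the single ones in each of these 5 fish. In fish P3 they made up 2.89%, more than the single ones. There the scar 484M13D23M27D173M, chosen after its values were seen, which joins the loss of positions 485 to 497 with that of positions 521 to 547, had 147230 reads and was kept in all 23 libraries. It made up between 0.110% and 23.6% of the scarred reads of a library, with a median of 2.13%, and had 0 reads in the tables of the other 5 fish. The loss of positions 521 to 547 alone had 2920 reads in fish P3. For every 100 reads of the double deletion there were between 1.12 and 6.11 reads of the single one, with a median of 2.07, and both were highest in barcode 9 (23.6% for the double and 0.441% for the single deletion). The loss of positions 485 to 497 alone had 0 reads. In the other 5 fish, which had no reads of the double deletion, positions 521 to 547 were lost alone in 244 to 12208 reads. The origin of the single deletion in fish P3 was not tested. The most widespread long deletion, of positions 525 to 549, was also kept with a further 1-bp deletion at position 576, in 46 reads of fish R1 and in 160, 45 and 43 reads of P1, P2 and P3, beside 13812 reads without it in fish R1 and 95134, 22259 and 32174 in the others. The same position accompanied the losses of positions 513 to 562 and 522 to 560 in fish P1, in 292 and 93 reads. Position 576 was not the only one. With a 1-bp deletion at position 574, the 525 to 549 loss had 32 reads in fish R1 and 93, 27 and 31 in P1, P2 and P3. With one at position 580 it had 57 reads in fish P1 and 14 in fish P2. Both positions also accompanied the 513 to 562 and 522 to 560 losses in fish P1. Other long deletions of fish R1 and P3 were likewise kept with a 1-bp deletion at position 574 or 576. The double deletion of fish P3 was kept with position 576 lost as well, in 221 reads. The counts were not filtered for noise, and whether these 1-bp deletions were separate events in the fish was not tested.

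Long deletions were set beside single deletions of 13 to 24 bp, the class nearest in length, in 4 properties, with the 6 fish as pairs. This shorter class had 168 different scars. In each fish it had more scars and a higher median of reads per scar, so the following values compare classes of unequal abundance, and the first pair of properties rests on the limit of 10 reads that also chose the scars. The tests of that pair therefore do not separate length from read number. Kept in no other fish were 43.4% ± 20.03 of the long deletions and 11.8% ± 5.17 of the deletions of 13 to 24 bp (SD, n = 6 fish each). The difference of 31.7 percentage points was positive in 5 of 6 fish, the exception being fish P2 (exact permutation test over fish with signs flipped, two-sided, p = 0.0625, adjusted p = 0.0833). Whether a scar is kept in no other fish depends on the scars of the other fish. The 6 differences are therefore not independent, which this test assumes. Kept in a single library were 47.02% ± 12.6 of the long deletions and 27.2% ± 6.05 of the shorter ones (SD, n = 6 fish each). This difference of 19.8 points was positive in 6 of 6 fish, with the smallest p that 6 fish can give (exact permutation test, p = 0.0312, adjusted p = 0.0833). A length that is a multiple of 3 was found in 33.6% ± 9.54 of the long deletions and 44% ± 4.35 of the shorter ones (SD, n = 6 fish each). It was less common in 5 of 6 fish, with a difference of -10.4 points (exact permutation test, p = 0.0625, adjusted p = 0.0833). Single deletions of 7 to 12 bp, not tested, had 35.8%, 26% and 35.6% in R1, R2 and R3, against 32.4%, 35.2% and 27.1% in P1, P2 and P3. These values overlapped with those of long deletions. Most deletions of 13 to 24 bp in a fish were also kept in another fish. The 6 differences in multiples of 3 and in reach are therefore not independent either. The mean over fish of the median excess of left over right reach was 9.08 ± 3.57 bp in long deletions and 4.58 ± 1.56 bp in the shorter ones (SD, n = 6 fish each). A longer deletion can have a larger excess, so the length of the classes bears on this value. It was larger in 4 of 6 fish, by 4.50 bp on average (exact permutation test, p = 0.125, adjusted p = 0.125). None of the 4 differences passed 0.05 after Benjamini-Hochberg adjustment at the limit of 10 reads. With a limit of 100 reads in a library, the first 3 had adjusted p = 0.0417 (exact permutation test), with differences of 26.03, 15 and -16.2 points. With every library drawn down to 2500 reads, their adjusted p was 0.375, 0.708 and 0.708 (exact permutation test), with differences of 43, 13.3 and -12.7 points.

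The limits of the rule cut through a continuous range of lengths and reads. At 25 bp, just inside, the loss of positions 525 to 549 was the most read deletion in each fish. At 24 bp, just outside, the loss of positions 521 to 544 was the most read deletion in 5 fish, with 1.14%, 0.689% and 0.260% of scarred reads in R1, R2 and R3 and 0.622% and 0.498% of those of fish P2 and P3. In fish P1 it was the loss of positions 524 to 547, with 0.243%. Of the long deletions below the limit on reads, 8 cases had 9 reads in their best library, while 5 of those kept had exactly 10. Altogether 397 cases stayed below 10 reads in every library, 244 of them at 1 read. They held between 99 reads in fish R2 and 467 in fish P1, so that nearly all long-deletion reads belonged to the members.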

How the data were processed

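GFP fragments amplified from genomic DNA were sequenced for 6 fish, 3 per injection group, grouped by the sample labels. The authors mapped the reads with BWA (0.7.16a in the submitters' processing notes) and deposited them as counts per scar and barcode, 1 table for each fish, not normalized and not filtered for noise. The GFP sequence was not used here. Repeated bases at a junction therefore could not be searched, and the position of such a deletion depends on how the aligner places gaps. How the aligner treats long gaps can also affect which long deletions appear.

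A barcode served as a library from 1000 reads upwards. Percentages refer to scarred reads, that is all reads except 720M. A scar counted as kept in a library with at least 10 reads. The members, lists and tests were chosen with earlier results of these data known. Scars are named in the text when they rank among the first 3 of a fish, were kept in all 6 fish, in most libraries of a fish, are among the 3 longest, or lie at a threshold, and first and last bases when most members used them. The few others are marked in the text. Shares summed over members were given without a test. Single scars were compared between injection groups by exact permutation over fish, and length classes by exact flipping of signs over fish, both two-sided. The 4 comparisons of length classes were adjusted by Benjamini-Hochberg, and so were the 4 comparisons of single scars between injection groups. The labels do not say whether fish of a group share parents, so p-values measure the spread between these fish only. Intervals are 95% Wilson intervals, and detection limits are 3 reads. Libraries held 2802 to 3198706 reads. Alternatives were other read limits, library limits, anchors, weights and read depth, and each fish left out. The steps were checked with 6 tests on simulated data, all passed. Python 3.11.15, NumPy 2.4.6, pandas 2.3.3 and SciPy 1.17.1 were used, with random seed 1.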

Additional observations from a re-analysis of the deposited data

Results flagged for a closer look

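Barcodes with fewer than 1000 reads were not used as libraries, and entered the alternative with all barcodes and the search for the double deletion in the other fish. In 3 fish they held more single long deletions than the 3 reads of the detection limit. There were 7 such reads among 781 scarred reads in fish R3, 13 among 630 in fish P1 and 4 among 445 in fish P2, which are 0.896%, 2.06% and 0.899% of the scarred reads of these barcodes. Of these reads, 7, 8 and 2 carried a long deletion that was also kept in the libraries of the same fish. Their origin was not tested.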

How the results depend on the processing

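The number of long deletions, 117, fell to 52 with a limit of 100 reads, to 34 with a limit of 0.1% of the reads of a library and to 18 with 2500 reads per library, and lay between 76 (without fish R1) and 116 when one fish was left out. The difference in their share of scarred reads, Cas9 RNA minus Cas9 protein fish, was -0.0965 percentage points, with -0.579 as the lowest and 0.438 as the highest value when one fish was left out. It changed sign without fish R1 (0.0660), R3 (0.0966) or P1 (0.438), and kept it under the other alternatives. The mean excess of left over right reach, 9.08 bp, was 4.0 bp with scars weighted by reads and 11.4 bp when each fish was measured from its own most deleted base. Its excess over deletions of 13 to 24 bp was 4.50 bp, reversed to -1.42 bp with 2500 reads per library and was 0.833 bp with scars weighted by reads (adjusted p = 1.0, exact permutation test). Against that class, the differences in scars kept in 1 fish, in 1 library and in multiples of 3 had adjusted p = 0.0417 (exact permutation test) in 3 alternatives, with 26.03, 15 and -16.2 points at 100 reads, 29.5, 19.4 and -25.1 points at 0.1% of the reads, and 28.5, 24.2 and -10.9 points without 1-bp neighbours of scars with 10 times the reads. With 2500 reads per library their adjusted p was 0.375, 0.708 and 0.708 (exact permutation test). The differences in scars kept in 1 fish and in 1 library rest on the read limit that chose the scars. Their p-values therefore do not separate length from read number in any of these settings. Values for scars kept in 1 fish are also not independent between fish. The same holds for multiples of 3 and reach, since most deletions of 13 to 24 bp in a fish were shared with another fish. With one fish left out the differences ranged from 25.3 to 36.7, from 16.7 to 22.6 and from -12.5 to -6.21 points. No test over 5 fish can give a p under 0.0625.

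Among the deletions kept in all fish, that of positions 525 to 549 differed by -0.446 to -0.310 points with one fish left out. That of positions 521 to 547 ranged from -0.00115 (without fish R1) to 0.0576, and that of positions 532 to 557 from -0.122 to 0.0290 (without fish P3). Fish with the same number share only that number, and their deviations from the group means correlated at -0.226, -0.315 and -0.0399 over the 117 long deletions. With the fish number as replicate block, the difference at positions 525 to 549 was -0.355 (exact permutation test, p = 0.25, not adjusted, the smallest that 3 pairs can give). Under the limit of 0.1% of the reads, deletions not kept in all 6 fish gave no value. The causes of these changes were not tested. The number of long deletions fell from 117 to 18 at 2500 reads per library. The limit of 0.1% of the reads of a library, without drawing down, left 34. The parts of depth and of the read limit in the fall to 18 were not tested.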
